A study of Mus musculus with 12 samples.

Results

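The Crem region of mouse chromosome 18, taken as the stretch from 3200000 to 3400000 of the mm8 genome, held 3 CREB binding sites out of 7547 merged sites in the genome. The members were chosen by position alone, as every listed peak within that stretch. They come from CREB ChIP-seq (chromatin immunoprecipitation coupled to sequencing) of whole liver from male C57BL/6J mice, 8 to 12 weeks old, with an antibody to total CREB. The fasted group was 5 mice without food for 24 hours and taken at zeitgeber time 3. The re-fed group was 5 mice with the same 24-hour fast followed by 2 hours of food and taken at zeitgeber time 5, so that time of day and feeding cannot be told apart. The authors pooled the reads of the 5 livers of a condition before calling peaks, and the lists therefore carry no value for a single mouse. Single libraries of GR and of CEBPB from ad-lib fed mice were not analysed here.

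CREB is a leucine zipper transcription factor that binds the cAMP response element (CRE). In hepatocytes glucagon raises cAMP during fasting, protein kinase A phosphorylates CREB, and co-activators are then recruited to its target promoters. Crem encodes a close relative of CREB that binds the same element. Its gene has an upstream promoter, from which the longer activator and repressor isoforms arise, and an internal promoter that is itself cAMP-inducible. The internal promoter gives ICER, the inducible cAMP early repressor, which keeps the DNA-binding domain but lacks the activation domains and so closes a negative feedback loop on CREB targets, its own promoter included.

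The 3 sites formed a single peak at one end and a close pair at the other, and all 3 were called in both the fasted and the re-fed livers. The strongest, the upstream site, spans chromosome 18 positions 3337338 to 3337452. The internal pair spans 3281065 to 3281206 (here the first internal site) and 3281766 to 3281891 (the second internal site). In the study's browser view, where Crem is transcribed towards lower coordinates, the single peak stands at the promoter of full-length Crem and the pair at the start of the ICER transcript. That assignment was taken over here, as no mm8 annotation was used. In the RefSeq annotation of GRCm38.p6 the protein-coding neighbours of Crem (gene ID 12916) are Vmn1r238 and Cul2, and no listed CREB peak lay between the upstream site and the far end of the stretch, on the side of Cul2.

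Peak height is the largest stack of extended reads within a peak, in RPM, that is, scaled to the reads of the pool. The upstream site reached 3.59 RPM in the pool of fasted livers, which corresponds to 152 reads (95% exact Poisson interval 129 to 178 reads, 3.04 to 4.21 RPM). At the first internal site the height was 1.53 RPM, or 65 reads (interval 1.18 to 1.96 RPM). At the second internal site it was 0.779 RPM, or 33 reads (interval 0.536 to 1.09 RPM). The order of the 3 heights was thus upstream, first internal and second internal, and the intervals of no 2 of them overlapped. These intervals cover counting error only and say nothing of differences between mice.

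**Figure D1:**
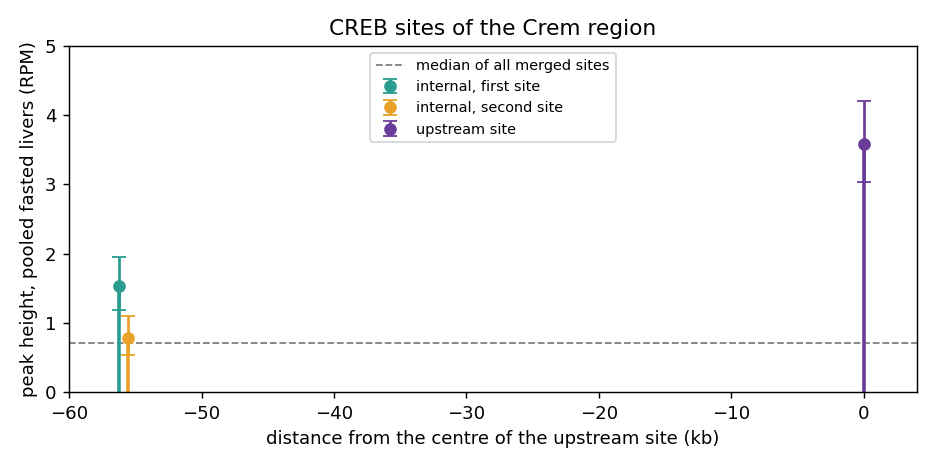
Peak height in the pooled fasted livers (RPM, vertical axis) at the 3 CREB sites of the Crem region, by distance from the centre of the upstream site (kb, horizontal axis). Points are the heights, whiskers the 95% exact Poisson intervals of the read counts, and the dashed line the median of all merged sites (0.708 RPM). The upstream site stands alone at 3.59 RPM, and the internal pair lies about 56 kb away at 1.53 and 0.779 RPM.

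The upstream site was 2.34 times as high as the first internal site (exact binomial interval 1.74 to 3.18) and 4.61 times as high as the second (interval 3.14 to 6.93). The first internal site was 1.97 times as high as its neighbour (interval 1.28 to 3.09). Added together, the internal pair reached 2.31 RPM, and the upstream site exceeded this sum by 1.55 times (interval 1.20 to 2.02). Of the 250 reads of height in the region, the upstream site held 60.8%. If the study's assignment holds, the internal promoter of ICER was marked by 2 separate, lower peaks and the upstream promoter by 1 high peak.

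Among all 7547 merged sites, which had a median height of 0.708 RPM and quartiles of 0.519 and 1.20 RPM, the upstream site had the 348th highest value. Only 4.60% of merged sites were higher, and on chromosome 18 it came 7th of 211. At 2.17 times the median, the first internal site was exceeded by 18.6% of merged sites. The second internal site lay at 1.10 times the median, with 41.7% of merged sites higher, and its Poisson interval included the median. Within a single locus the heights thus ran from near the top of the list to near its middle.

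**Figure D2:**
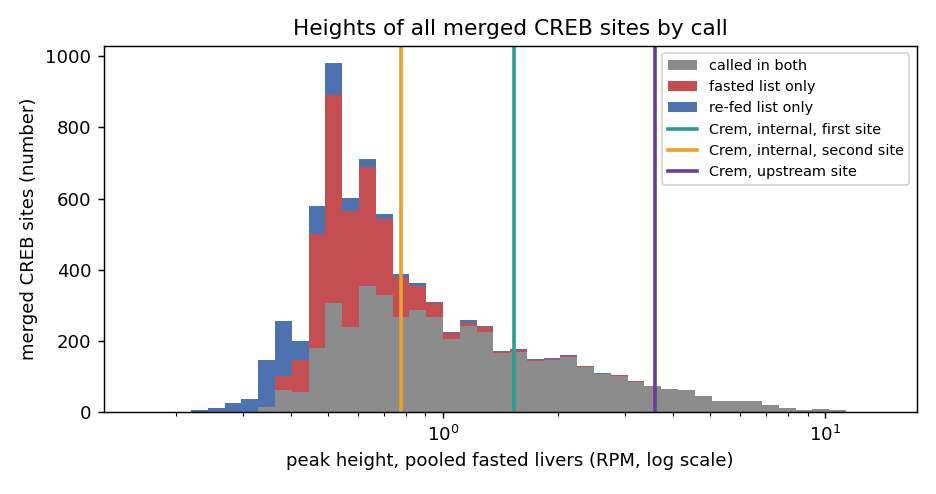
Number of merged CREB sites (vertical axis) by peak height in the pooled fasted livers (RPM, log scale, horizontal axis), with the bars stacked by call. Vertical lines mark the 3 Crem sites: the upstream site at 3.59 RPM lies where nearly all bars are grey (called in both lists), and the second internal site at 0.779 RPM lies where many sites were listed in 1 condition only.

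Each of the 3 sites was listed for fasted and for re-fed livers with the same interval, against a background of 61.5% of merged sites called in both lists. With each list restricted to heights of at least its own median, 2 of the 3 were called in both, and the second internal site was left in the fasted list only. Both lists carry fasted heights, with medians of 0.732 RPM in the fasted and 0.873 RPM in the re-fed list. This outcome therefore holds no information on binding in the re-fed livers. A share of 3 out of 3 sites says little by itself, since the share of sites called in both lists rose with height. Of the 147 other sites within 10% of the height of the upstream site, 99.3% were called in both (Wilson interval 96.2% to 99.9%). Of the 336 sites within 10% of the first internal site it was 96.7% (interval 94.2% to 98.2%). The second internal site was in the range where the call was less certain: 67.6% of the 942 sites of like height were called in both (interval 64.6% to 70.5%). The call of the upstream and the first internal site was therefore that of nearly every site as high, while the second internal site belonged to the larger of 2 mixed classes.

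The deposited height column could not be used to compare fasting with re-feeding at Crem. It holds the height in the pooled fasted libraries in both lists, and all 4645 shared sites have the same value in each. Information on the re-fed livers was however carried by the number in each site's name, which runs from 1 to 7547 without repeats and orders the sites by the average of the pooled fasted and re-fed heights. This order was read from the rows of the study's peak table used here, which include none of chromosome 18, and it was taken to hold at Crem as well. The upstream site had number 353 by the average and rank 348 by fasted height (tied sites take the best rank). For the internal pair, the first had number 1369 and rank 1401 and the second number 3068 and rank 3151. The places by average and by fasted height thus differed by 5, 32 and 83 positions, with the upstream site placed later by the average than by the fasted height and the internal sites earlier. Set against sites within 10% of its own fasted height, each of the 3 had an earlier number than the median: 353 against 369 for the upstream site, 1369 against 1454.5 for the first internal site and 3068 against 3412.5 for the second. Of those sites of like height, 39.5%, 33.6% and 29.4% had a lower number, and each Crem site lay within their quartiles. Lower heights were more common than higher ones, so such a band tends to hold more sites below a member than above it. An earlier number than the median can follow from this alone. For the upstream site the direction also depended on the comparison, and no direction is read for any of the 3.

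Sites with neighbouring numbers have nearly the same average, so a site that is lower than its neighbours in fasted height is higher than they are in re-fed height by about the same amount. The upstream site lay 0.0354 RPM above the median fasted height of the 50 sites on each side of it in this order (3.55 RPM, quartiles 3.42 and 3.73 RPM), and 46 of these 100 sites were higher. By contrast, the first internal site was 0.0354 RPM below the median of its neighbours (1.57 RPM, quartiles 1.49 and 1.70 RPM), with 58 of 100 higher. The second internal site was 0.0236 RPM below its neighbours' median (0.803 RPM, quartiles 0.732 and 0.850 RPM), with 56 of 100 higher. All 3 differences were at most 1.5 reads of the fasted pool (1 read is 0.0236 RPM), well inside the Poisson interval of each height, and each site lay within the quartiles of its neighbours. The balance of fasted and re-fed height at the 3 Crem sites was therefore close to the median of sites of the same average height, and a difference from them smaller than the counting error was not detectable.

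**Figure D3:**
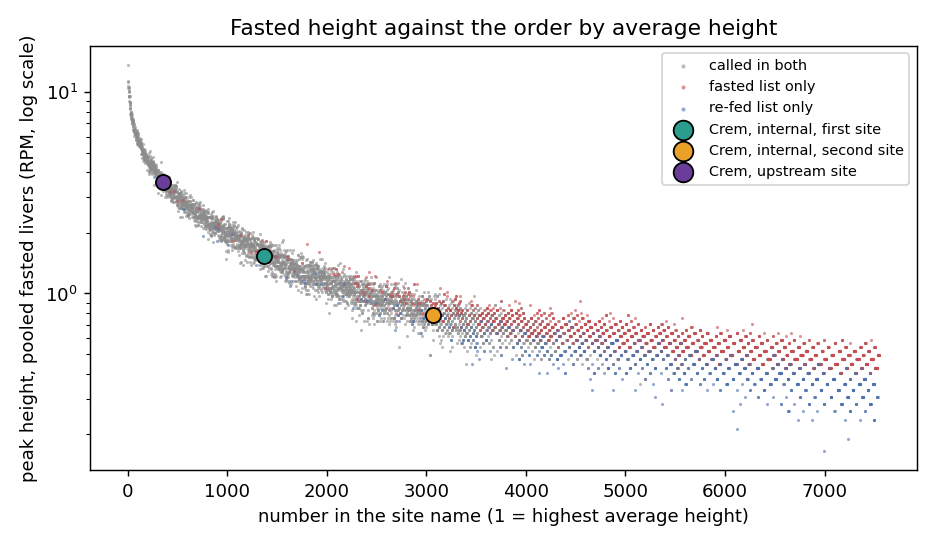
Peak height in the pooled fasted livers (RPM, log scale, vertical axis) against the number in the site name (horizontal axis), for all 7547 merged sites. Small points are coloured by call, and large points are the Crem sites, which lie at numbers 353, 1369 and 3068 in the middle of the band formed by the other sites.

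The same order set a lower limit on the re-fed heights, because the sum of fasted and re-fed height at a site cannot be below the fasted height of any site with a later number. At the second internal site the re-fed height was at least 0.283 RPM, so that its fasted height was at most 2.75 times the re-fed height. The limit was at least 0.307 RPM at the first internal site, a fasted height at most 5.00 times as high, and at least 0.354 RPM at the upstream site, at most 10.1 times as high. The limit was looser the stronger the site, and it gives no upper bound on binding in the re-fed livers. The lists allow no test between conditions over mice, and the calls and the order describe the 2 pools of livers. The study itself compared read counts of the replicates at every merged site. It reported few sites with differential binding, and none of these lay in the Crem region.

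The widths of the 3 sites differed more than their calls. The first internal site was 142 bp wide, the second 126 bp and the upstream site 115 bp, against a median of 114 bp and quartiles of 111 and 126 bp over all merged sites. All 2190 fasted-only sites were 111 bp wide and all 712 re-fed-only sites 109 bp. The 4645 shared sites ranged from 111 to 219 bp, the last being the longest union of a 111 bp and a 109 bp interval that overlap by 1 bp. The width of a shared site thus gives the distance between the centres of its fasted and its re-fed peak, as the width less 110 bp for any site wider than 111 bp.

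Read in this way, the fasted and re-fed peak centres lay 32 bp apart at the first internal site, 16 bp at the second internal site and 5 bp at the upstream site. The direction of the shift is not given by the merged interval. The median over all shared sites was 12 bp, with quartiles of 5 and 24 bp, and 15.8% of shared sites were wider than the first internal site, 38.3% wider than the second and 74.5% wider than the upstream site. Because this distance also varied with height, shared sites of like height were compared next. Among the 325 shared sites within 10% of the height of the first internal site the median distance was 10 bp (quartiles 5 and 18 bp), and only 26 of them (8.00%) were wider. The second internal site was near the median of its 637 counterparts (15 bp, quartiles 7 and 30 bp), and the upstream site was within the quartiles of its 146 counterparts (7 bp, quartiles 4 and 11 bp). The first internal site, assigned with the second to the ICER promoter, was thus the member whose fasted and re-fed peak centres lay farther apart than at most sites as high. The lists give no error for a peak centre, and whether the distance exceeds the variation between mice was not tested.

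**Figure D4:**
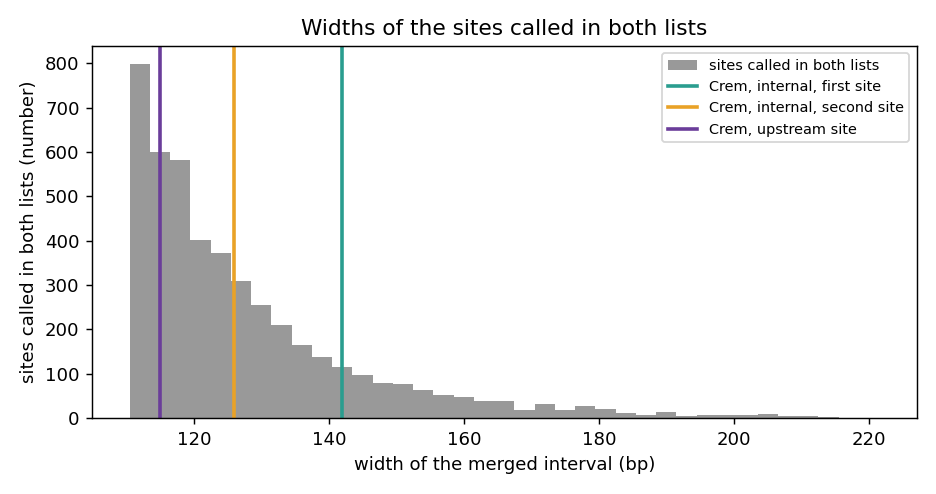
Number of sites called in both lists (vertical axis) by the width of their merged interval (bp, horizontal axis). Vertical lines mark the Crem sites at 115 bp (upstream), 126 bp (second internal) and 142 bp (first internal), the last in the upper part of the distribution, with 15.8% of shared sites wider.

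The centres of the internal pair lay 693 bp apart, with a gap of 559 bp between the intervals. A neighbour within 1000 bp was found for 13.7% of merged sites, and for 16.1% of those on chromosome 18. There were 531 adjacent pairs of sites with centres at most 1000 bp apart. Their median distance was 402 bp and the higher site of a pair was a median of 1.44 times as high as the lower (quartiles 1.23 and 2.02). The Crem pair, with a ratio of 1.97, was more widely spaced than most (13.2% of pairs were farther apart) and more unequal than most (26.9% had a larger ratio). Both of its sites were called in both lists, which was so for 24.9% of these pairs, whereas 254 pairs had 1 such site and 145 had none.

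The upstream site stood 55.6 kb from the second and 56.3 kb from the first internal site. It had no other listed site near it, and 37.4% of all merged sites, and 41.0% of the 349 sites at least as high, were as isolated or more so. Beyond it the next site on the chromosome was 170 kb away, from 3507694 to 3507820, called in both lists with a height of 0.496 RPM. No listed site preceded the internal pair on chromosome 18. The 3 sites of the Crem region were thus set apart from the rest of the chromosome by at least 170 kb on the side where further sites followed.

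When the chromosomes were divided into windows of 200 kb between their first and last site, 70.2% of the 12742 windows held no site and 7.18% held 3 or more. The Crem window, with 3 sites and a summed height of 5.90 RPM, was exceeded in summed height by 2.32% of windows. These shares depend on the window: of windows of 100 kb, 2.51% held 3 or more sites and 0.848% had a sum above 5.90 RPM. The 3 Crem sites also fit within 100 kb, but in this division the internal pair and the upstream site fall into different windows. No window of it held all 3. Of the 441 windows with exactly 3 sites, 22.9% had all 3 called in both lists, as the Crem window did.

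Other genes of the cAMP pathway were taken for comparison from a fixed list of 11 with known roles in or downstream of the pathway. Genes were put on the list only if they had a listed site in the rows used here. They had 21 listed sites, of which 16 were called in both lists, 4 in fasted livers only and 1 in re-fed livers only, with a median height of 0.968 RPM (61.5% of all merged sites were called in both). A call in 1 list only does not show binding in that condition alone, as the study itself cautions. None of the 21 was as high as the upstream Crem site, whereas 6 were higher than the first internal site and 12 higher than the second. Crem had the highest single site and the largest summed height of these genes. The list was drawn up with earlier results of these data known, so this order is a description of the genes on it.

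The nearest in height was Sik1, a kinase that is induced by CREB and restrains the CREB co-activators. Its strongest site, on chromosome 17 from 31584644 to 31584781, reached 3.09 RPM, and the ratio of the upstream Crem site to it was 1.16, with a binomial interval of 0.912 to 1.48 that includes equal heights. All other genes of the list lay below Crem by more than counting error. The nuclear receptor genes Nr4a2 and Nr4a3, rapid targets of cAMP, had their highest sites at 2.03 and 1.96 RPM, and the third member, Nr4a1, had 1 site of 0.708 RPM called in the fasted livers only. Egr1, an immediate early gene also on chromosome 18, had a site of 1.86 RPM called in both lists and a lower one of 0.543 RPM called in the re-fed livers only. Among components of the pathway, the highest sites were 1.58 RPM at Crtc2, a CREB co-activator, 1.46 RPM at Pde4b, which degrades cAMP, and 1.35 RPM at Creb1, which encodes CREB itself. The upstream Crem site was 2.67 times as high as the Creb1 site (interval 1.95 to 3.68).

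The highest sites of the gluconeogenic targets on the list, Pck1 and Ppargc1a, were lower than the upstream Crem site. Pck1, which encodes the key enzyme PEPCK, shared with Crem a count of 3 sites all called in both lists, and its highest site had 0.968 RPM, against which the upstream Crem site was 3.71 times as high (interval 2.61 to 5.37). At Ppargc1a, a co-activator of the gluconeogenic program, the higher of 2 sites had 0.991 RPM and was called in the fasted livers only. The study's own ChIP-qPCR at Pck1 and Ppargc1a found no significant change in CREB binding between the conditions. The lowest of the list was Atf3, a stress-induced factor that also binds CRE-like elements, with 0.614 RPM at its higher site. The second internal Crem site, at 0.779 RPM, was lower than the highest sites of Pck1 and Ppargc1a and higher than that of Atf3.

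**Figure D5:**
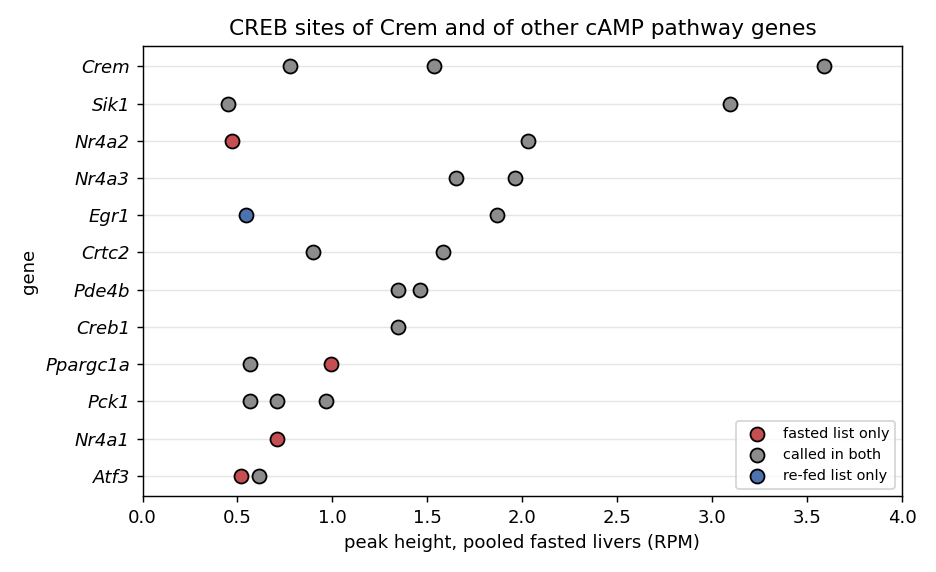
Peak height in the pooled fasted livers (RPM, horizontal axis) of each listed CREB site of Crem and of 11 other cAMP pathway genes (vertical axis, ordered by the highest site). Points are single sites coloured by call: grey for both lists, red for fasted only and blue for re-fed only. The 3 Crem sites are all grey, and the highest of them, at 3.59 RPM, lies farthest to the right, next to Sik1 at 3.09 RPM.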

How the data were processed

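The authors mapped the reads of each CREB library to the mm8 genome using Eland, removed duplicate reads from each replicate, combined the 5 livers of a condition and called peaks with HOMER (version 3.0 per the submitters' processing notes) at a 5% FDR against earlier inputs. Peaks that were not called in every pool of 4 livers, or whose average height was not above 0.35 RPM, were removed, and fasted and re-fed peaks were merged. The deposited values are peak heights in RPM, and reads had been extended to 108 bp. Names of sites carry a number, read here as the deposited order by average height after comparison with the rows of the study's peak table used here, none of them on chromosome 18. The height column was likewise identified with that table as the pooled fasted height. As every height was a whole multiple of 0.0236 RPM (largest deviation 1.99e-12 reads), heights were also expressed as reads of a pool of 42363292 reads. No count test was run, since the deposited lists give 1 value per site.

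Lists of 6835 fasted and 5357 re-fed peaks were merged by an overlap of at least 1 bp, with intervals read as inclusive. Intervals are at the 95% level (exact Poisson for heights, exact binomial for ratios, Wilson for shares). Those of heights and ratios cover counting error only and treat a peak height as a plain read count. The Wilson intervals treat the sites compared as a sample of sites and cover no other error. The sites of the 11 comparison genes were located by the peak centres that the study lists for them, from the rows used here. The functions were tested on simulated data. The members, lists and comparisons were chosen with earlier results of these data known. The widths as distances between peak centres, the sites of like height and the lower limit on re-fed height were chosen after seeing the data. The text names Crem, its neighbours Vmn1r238 and Cul2, and the 11 genes, with sites of no gene given by position. Alternatives covered the rule of overlap, the peak list, the window, the set of comparison sites and the number of neighbours. The scripts ran under Python 3.11.15 with scipy 1.17.1, pandas 2.3.3, numpy 2.4.6 and, for plots, matplotlib 3.10.9. Sequences of the sites are not reported here.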

Additional observations from a re-analysis of the deposited data

How the results depend on the processing

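No paired analysis was possible because the fasted and the re-fed livers came from different mice. The deposited lists hold 1 pooled value per site. The study also gives peak heights for each replicate, but no value per mouse at the Crem sites was used here. Leaving out each replicate was not run because the values used were pooled. Of the 34 alternative values computed, 22 stayed within the counting interval of the reported value or equal to it, among them all distances, all differences from neighbours in the name order and the calls under a reciprocal overlap of 90%, with peaks up to 500 bp apart merged and with the window narrowed or widened. When each list was restricted to heights of at least its own median, 2 of the 3 Crem sites were called in both lists, because the second internal site, at 0.779 RPM, lies above the median of the fasted list (0.732 RPM) and below that of the re-fed list (0.873 RPM), whose heights are also fasted heights. Against the fasted list alone, 20.4% of sites were higher than the first internal site and 45.6% higher than the second. Against the re-fed list alone, which holds fewer weak sites, the shares were 25.8%, 55.0% and, for the upstream site, 6.48%. On chromosome 18 alone 43.6% of sites were higher than the second internal site and 2.84% higher than the upstream site. Among sites called in both conditions 15.8%, 38.3% and 74.5% were wider than the first internal, second internal and upstream site, against 9.70%, 23.6% and 45.8% of all merged sites. With windows of 100 kb, 2.51% held 3 or more sites, but none of these held all 3 Crem sites.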
